A study of Mus musculus with 19 samples.

Results

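The level of 43 cell cycle and proliferation genes was examined in neoplastic cells sorted from mouse lung tumors. The members were found by their gene symbols among the 53558 genes of the count tables, and all 43 were present and passed the filter on low counts that 13986 genes passed. They were divided by the part of the cycle in which their products mainly act: 4 genes of G1 phase (*Ccnd1*, *Ccnd2*, *Cdk4* and *Cdk6*), 17 genes of the G1/S transition and of DNA replication (the S list), and 22 genes of G2 phase and mitosis (the G2/M list). The genes were chosen by name, with earlier results of these data known, so the counts over the lists below are descriptions.

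Tumors were initiated in mice that carried *Rosa26*LSL-tdTomato and H11LSL-Cas9, on a mixed background, at 6 to 12 weeks of age. Intratracheal lentiviral vectors expressed Cre together with sgRNAs, so that tdTomato and Cas9 were switched on in the same infected cells. The control vector carried inert sgRNAs (sgInert, 7 libraries), and the others carried sgRNAs against *Cebpa*, *Cebpb* and *Cebpd* (sgCebpa/b/d, 7 libraries) or against *Lkb1*, whose mouse symbol is *Stk11* (sgLkb1, 5 libraries). The methods give 75000 infectious units of virus per mouse, and tumors grew for 17 weeks before they were dissected and dissociated and tdTomato-positive neoplastic cells were sorted. Cas9 leaves a mixture of edited alleles in such cells, and tdTomato and Cas9 were shared by all 3 groups, the controls included. All 5 sgLkb1 libraries came from females, whereas sgInert had 4 male and 3 female libraries and sgCebpa/b/d had 3 male and 4 female libraries. The titles of the libraries carry a number that begins with ZR (4 sgInert libraries) or with MT (3 sgInert, 4 sgCebpa/b/d and 3 sgLkb1 libraries), or carry none (3 sgCebpa/b/d and 2 sgLkb1 libraries). That this is an animal number was assumed, here and below. Libraries sgInert#2 and #5 share the number MT1161, sgCebpa/b/d#1, #3 and #4 share MT1205, and sgLkb1#2 and #3 share MT1136. The p-values below therefore measure the spread between libraries, some of which were taken to come from the same animal. Another experiment of the study, with less virus, lists the same MT numbers for sgInert and sgCebpa/b/d animals, and which amount of virus these libraries come from is therefore not certain.

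The cell cycle is driven by cyclin-dependent kinases, each switched on by a cyclin. In G1, D-type cyclins with CDK4 or CDK6 phosphorylate the retinoblastoma proteins, which releases E2F transcription factors and allows the genes of DNA replication to be transcribed. Genes of G2 and mitosis are kept silent in resting cells by the DREAM complex and are later activated by B-MYB with the MuvB core and by FOXM1. MuvB binds a promoter element called the CHR (cell cycle genes homology region), which often lies downstream of CCAAT boxes bound by NF-Y. In lung epithelium the cell cycle is mostly at rest. The level of the G2/M genes is widely read as a sign of the share of cycling cells, but in bulk RNA fewer cycling cells and less RNA in each cycling cell cannot be told apart.

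Promoter sequences were taken from the RefSeq table of GRCm38.p6, which held 33 of the 43 members in a window of 250 bases before to 50 bases after the transcription start site. *Ccnd1*, *Ccnd2*, *Ccne2*, *Gmnn*, *Mcm4*, *Foxm1*, *Ccna2*, *Aurkb*, *Kif20a* and *Tpx2* were not among them. Both strands were searched for the CHR (TTTGAA or TTCGAA), for the CCAAT box (CCAAT) and for 4 forms of an E2F motif (TTTGGCGC, TTTCGCGC, TTTCCCGC or TTTGCCGC). A match to one motif can share bases with another, as E2F matches on opposite strands do, and TTCGAA reads the same on both strands and was counted once. The following 5 stretches of 200 bases upstream of the start site are shown because they carry the contrast between the lists: 3 G2/M promoters (*Mki67*, *Top2a* and *Cdk1*) with CHR and CCAAT matches, of which *Cdk1* also has an E2F match, and 2 replication promoters (*Mcm5* and *Mcm6*) with E2F and CCAAT matches and no CHR match. Each is written 5′ to 3′ on the strand of its gene, and capitals mark the matches to any of these motifs.
Mki67: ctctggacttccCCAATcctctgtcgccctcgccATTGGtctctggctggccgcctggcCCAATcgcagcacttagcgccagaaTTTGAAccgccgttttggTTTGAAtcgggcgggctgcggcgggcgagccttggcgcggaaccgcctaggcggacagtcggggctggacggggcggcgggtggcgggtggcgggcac
Top2a: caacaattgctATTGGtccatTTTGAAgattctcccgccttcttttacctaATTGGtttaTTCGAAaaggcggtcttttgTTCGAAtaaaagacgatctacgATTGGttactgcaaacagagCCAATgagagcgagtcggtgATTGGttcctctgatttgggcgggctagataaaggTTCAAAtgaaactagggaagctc
Cdk1: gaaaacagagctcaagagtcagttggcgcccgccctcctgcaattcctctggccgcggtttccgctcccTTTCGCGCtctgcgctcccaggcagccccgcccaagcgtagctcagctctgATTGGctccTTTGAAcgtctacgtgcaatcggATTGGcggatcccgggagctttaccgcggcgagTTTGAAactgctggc
Mcm5: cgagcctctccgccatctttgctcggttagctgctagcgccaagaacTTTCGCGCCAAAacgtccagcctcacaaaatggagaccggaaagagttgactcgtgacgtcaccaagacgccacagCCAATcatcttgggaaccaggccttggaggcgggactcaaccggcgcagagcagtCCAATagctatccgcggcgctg
Mcm6: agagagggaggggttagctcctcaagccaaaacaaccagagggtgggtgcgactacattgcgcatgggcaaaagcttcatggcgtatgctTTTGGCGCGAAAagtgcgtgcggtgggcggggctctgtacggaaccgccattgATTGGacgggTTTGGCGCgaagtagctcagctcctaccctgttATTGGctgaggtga

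The *Mki67* stretch lies on the minus strand at chr7:135716380-135716579 and holds 3 CCAAT and 2 CHR matches. That of *Top2a* lies on the minus strand at chr11:99024190-99024389, with 5 CCAAT and 4 CHR matches. The *Cdk1* stretch lies on the minus strand at chr10:69352913-69353112, with 2 matches to each of the CCAAT box and the CHR and 1 to E2F. *Mcm5* is read from the plus strand at chr8:75109309-75109508 and has 2 E2F matches, which overlap on opposite strands, and 2 CCAAT matches. *Mcm6* is read from the minus strand at chr1:128359706-128359905 and has 3 E2F matches, of which 2 overlap, and 2 CCAAT matches.

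A CHR match and a CCAAT box were found together in 14 of the 17 G2/M promoters in the table (82.4%), in 2 of the 14 S promoters (*Mcm2* and *Mcm7*, 14.3%) and in neither G1 promoter. Both were held by 9.65% of all 27025 genes in it, and among the 9708 of them that were tested here 8.12% did. The CHR alone was found in 21.7% of all genes and 16.6% of tested genes, and in the same 14 G2/M promoters. A CCAAT box was found in 16 of 17 G2/M promoters (94.1%) and in 9 of 14 S promoters (64.3%), against 41.1% of all genes and 42.8% of tested genes. Of the 17 G2/M promoters, only that of *Birc5* had none of the 3 motifs in this window. An E2F motif was found in 7 of 14 S promoters (50%), namely *Cdk2*, *Cdc6*, *Cdt1*, *Mcm3*, *Mcm5*, *Mcm6* and *Mcm7*, and in 1 of 17 G2/M promoters, that of *Cdk1*. It was found in 2.6% of all genes and 4.66% of tested genes. The first bases of the 41 CCAAT matches in G2/M promoters had a median position of −80 relative to the start site, and those of the 21 CHR matches a median of −19. These matches are descriptions of letters and were not tested as binding sites.

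**Figure D1:**
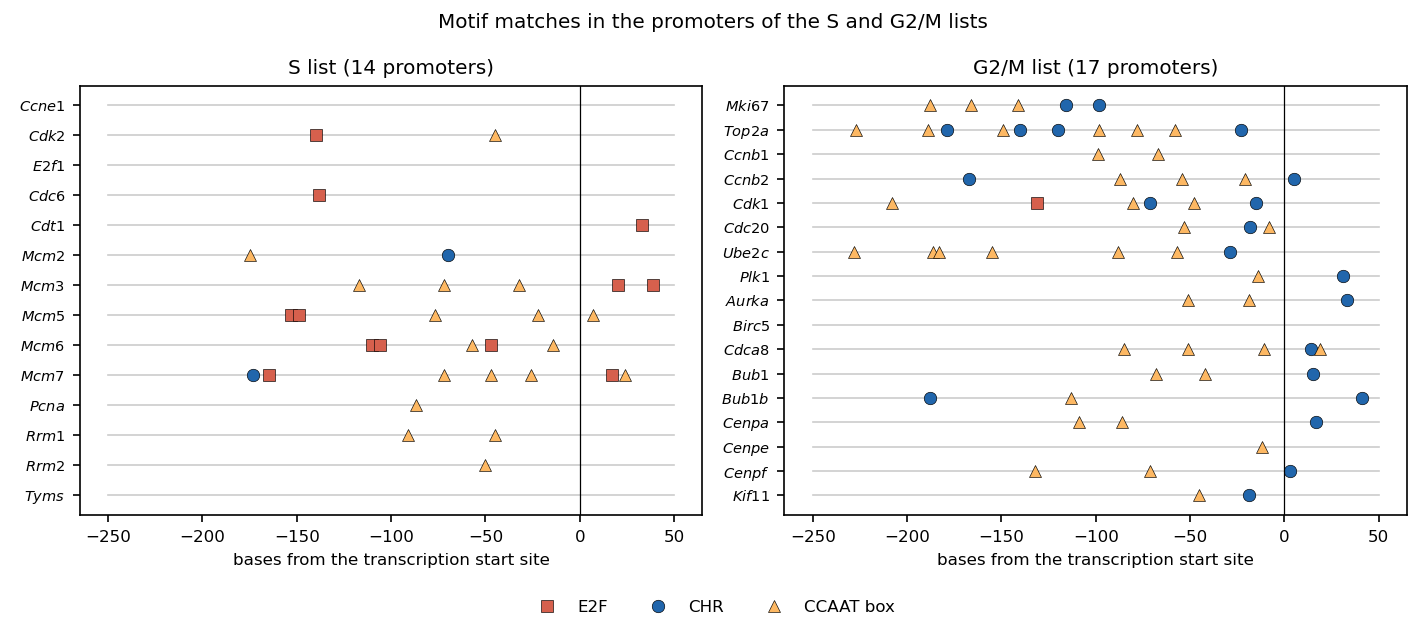
Positions of motif matches along the promoters of the S list (left, 14 promoters) and the G2/M list (right, 17 promoters). The x axis is the distance in bases from the transcription start site, each line is 1 gene, and squares, circles and triangles are E2F, CHR and CCAAT matches. CHR matches are seen in 14 of the G2/M promoters and 2 of the S promoters, and E2F matches in 7 of the S promoters and 1 of the G2/M promoters.

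The libraries held 2760722 to 9944131 expected counts, with a median of 6028918. No pair of replicates differed by as little as sampling noise, with chi-square values per gene of 6.78 to 69.0. *Stk11* had 4.31 to 4.53 log2 CPM in sgInert libraries and 2.97 to 3.68 in sgLkb1 libraries. Log2 CPM is the log2 of counts scaled to the library total after TMM normalization. Every sgLkb1 library was thus below every sgInert library for *Stk11*. *Cebpa* had 5.43 to 6.11 log2 CPM in sgInert and 6.17 to 6.97 in sgCebpa/b/d libraries, and *Cebpb* and *Cebpd* overlapped between them. Cas9 edits need not lower a transcript, so these levels do not check the sgCebpa/b/d labels. Alveolar and epithelial markers (*Sftpc*, *Sftpb*, *Lamp3*, *Epcam*, *Cdh1* and *Nkx2-1*) summed to 24113 to 29907 CPM in sgInert, 15379 to 23891 CPM in sgCebpa/b/d and 17896 to 23134 CPM in sgLkb1, whereas the sum of 4 erythroid markers was at most 2.70 CPM.

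In TPM, the deposited unit that allows for gene length as well as depth, *Pcna* was the most abundant member, with a median of 143 TPM over the 19 libraries. It was followed by *Ccnd1* (106), *Cdk4* (44.1), *Top2a* (17.0), *Tyms* (15.6) and *Mki67* (12.9). The lowest median was that of *E2f1* (0.7), a transcription factor that activates replication genes.

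Few members differed between the groups. By edgeR's quasi-likelihood test with Benjamini-Hochberg adjustment over all 13986 genes, 0 of 43 members passed an adjusted p of 0.05 between sgCebpa/b/d and sgInert, where 10.1% of all genes did. At an unadjusted p under 0.05, 4 members passed, where 3251 of the 13986 genes did. DESeq2 and limma-voom each called 0 members at the adjusted threshold, where they called 13% and 9.04% of all genes. Between sgLkb1 and sgInert 1 member passed, against 5.78% of all genes, and between sgCebpa/b/d and sgLkb1 1 member passed, against 5.96% of all genes. In both cases this was *Ccnd2*, which was higher in sgLkb1 libraries. The 3 comparisons share libraries, so their values for a gene are not independent of each other. The groups overlapped for all 43 members in each of the 3 comparisons, and 3.37%, 4.15% and 5.08% of all genes had groups that did not overlap. These shares are small for a list of 43 genes, so the overlap is not read as a trait of the members.

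**Figure D2:**
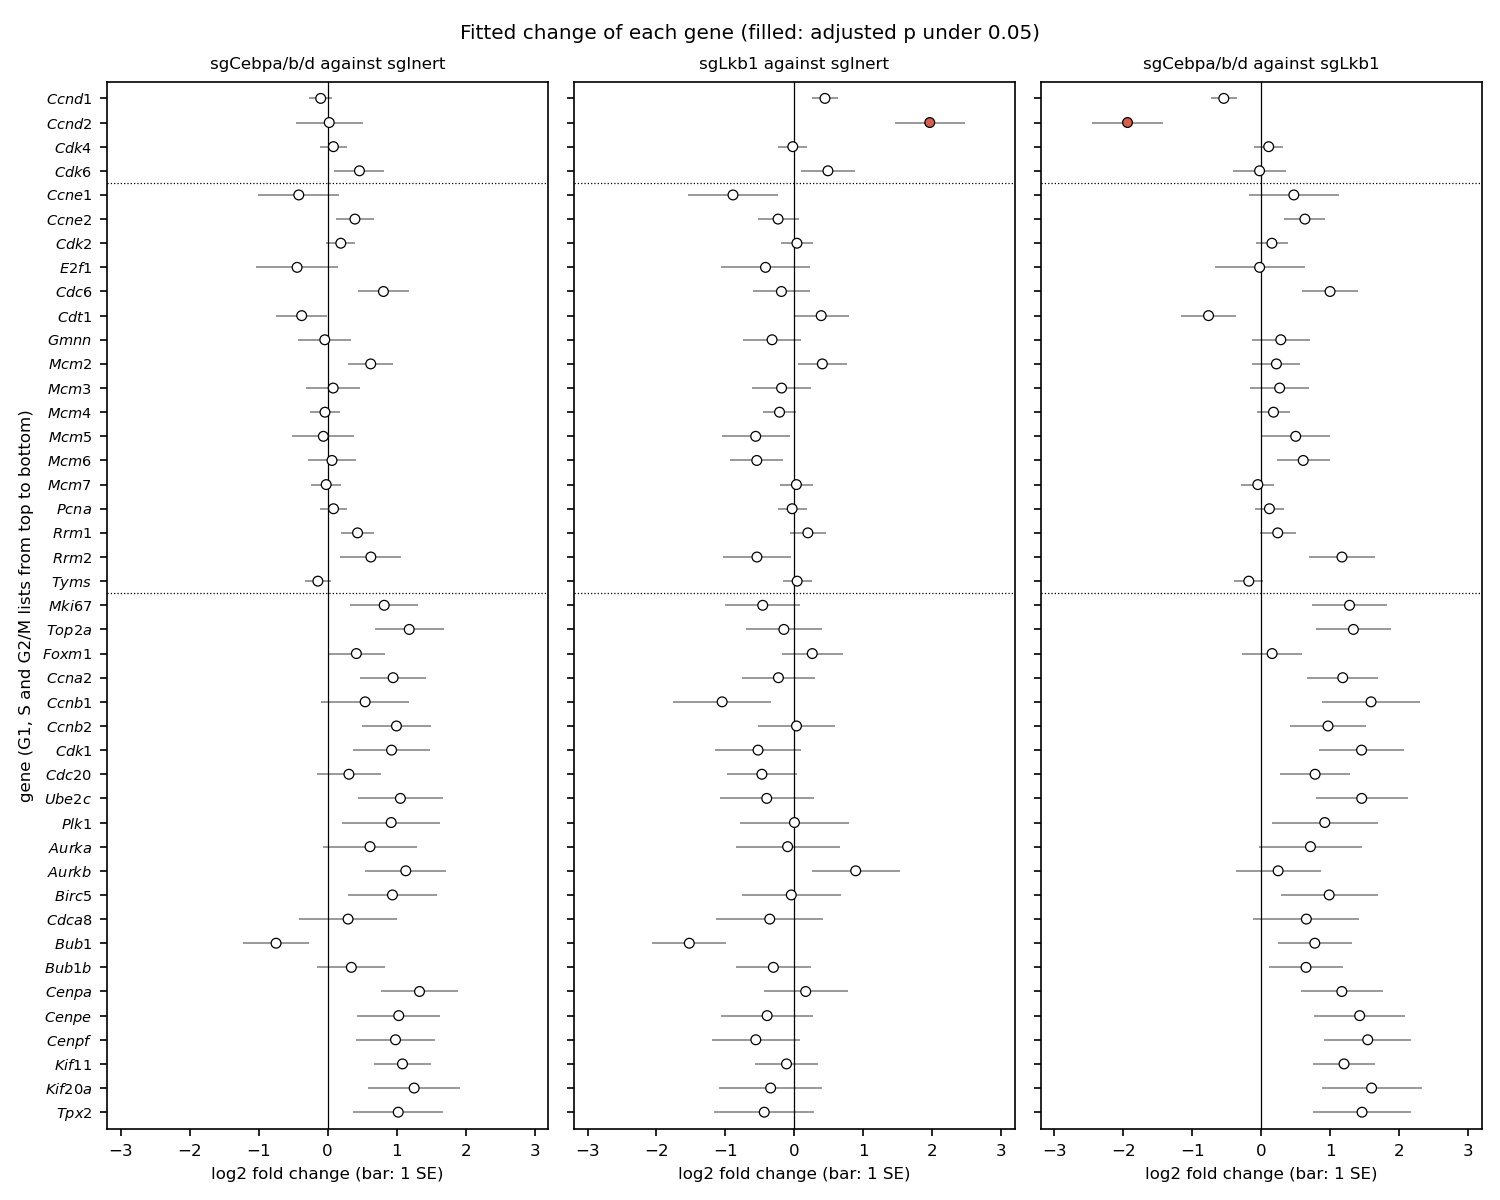
Fitted log2 fold change of each of the 43 members in the 3 comparisons (x axis, with bars of 1 standard error), with genes ordered by list on the y axis. Filled points have an adjusted p under 0.05, which holds for *Ccnd2* in both comparisons with sgLkb1 and for no other member. Of the 22 G2/M genes in the lower part, 21 lie above 0 for sgCebpa/b/d against sgInert and 22 for sgCebpa/b/d against sgLkb1.

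*Ccnd2* encodes cyclin D2, a partner of CDK4 and CDK6 in G1,, whose gene spans 127125162 to 127152193 of chromosome 6 (GRCm38). In sgInert libraries it had a lowest value of 1.90, a median of 4.04 and a highest value of 4.83 log2 CPM, and in sgCebpa/b/d libraries 2.04, 3.34 and 4.89. The sgLkb1 libraries #1 to #5 had 5.15, 6.28, 6.04, 4.80 and 5.64 log2 CPM. All of them but #4 were above every sgInert and sgCebpa/b/d library. The log2 fold change of *Ccnd2* was 1.96 (standard error 0.51, edgeR adjusted p = 0.0239) in sgLkb1 against sgInert libraries. Against sgCebpa/b/d libraries it was of like size, at −1.94 for sgCebpa/b/d against sgLkb1 (standard error 0.51, edgeR adjusted p = 0.0234). The sgCebpa/b/d and sgInert libraries differed by 0.02 on the log2 scale (standard error 0.48, edgeR adjusted p = 0.987), and by −0.30 to 0.34 when 1 library was left out. This value changed with how the title series was handled. It was 1.25 with title series as a covariate (standard error 0.50, edgeR adjusted p = 0.189) and 0.72 among MT-numbered libraries (standard error 0.41, edgeR adjusted p = 0.350). Without the libraries that carry no number it was −1.05 (standard error 0.54, edgeR adjusted p = 0.337).

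The level of *Ccnd2* moved with the title series within both other groups. The 3 MT-numbered sgInert libraries had 1.90 to 2.11 log2 CPM, from 14 to 30 counts, and the 4 ZR-numbered ones 4.04 to 4.83. In sgCebpa/b/d, the 4 MT-numbered libraries had 2.04 to 3.34 log2 CPM and the 3 without a number 4.23 to 4.89. The former are all female and the latter all male, so title series and sex cannot be told apart there. The sgLkb1 libraries showed no such division, with 4.80 to 6.28 log2 CPM in the 3 MT-numbered and 5.15 and 5.64 in the other 2. Among MT-numbered libraries alone, the log2 fold change against sgInert was 3.89 (standard error 0.40, edgeR adjusted p = 6.43e-05), and with those of the same animal summed 3.72 (standard error 0.45, edgeR adjusted p = 0.00427). The call over all libraries was lost when the libraries of each animal were summed (log2 fold change 1.66, edgeR adjusted p = 0.0935), without sgLkb1#2 or #3 (edgeR adjusted p = 0.0721 and 0.0540), and without the animal MT1161 or MT1136 (edgeR adjusted p = 0.0722 and 0.203). Against sgCebpa/b/d libraries the call was lost when libraries of an animal were summed (log2 fold change −1.56, edgeR adjusted p = 0.149), without sgLkb1#2 or #3 (0.0686 and 0.0634), and without MT1205 or MT1136 (0.144 and 0.217). The direction of both changes was kept in all of these.

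*Ccnd1* encodes cyclin D1 and lies on chromosome 7 from 144929931 to 144939925. It had a lowest, median and highest value of 7.06, 8.14 and 8.77 log2 CPM in sgInert libraries and of 7.84, 8.06 and 8.50 in sgCebpa/b/d libraries. The sgLkb1 libraries #1 to #5 had 8.87, 8.33, 8.52, 8.71 and 8.63 log2 CPM. Of the sgLkb1 libraries only #2 was below the highest sgCebpa/b/d library, whereas the sgInert libraries overlapped both other groups. The log2 fold change of *Ccnd1* was 0.44 in sgLkb1 against sgInert libraries (standard error 0.19, edgeR adjusted p = 0.191) and −0.54 in sgCebpa/b/d against sgLkb1 libraries (standard error 0.19, edgeR adjusted p = 0.0953). The latter passed the threshold by DESeq2 (log2 fold change −0.55, adjusted p = 0.0486).

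The 2 kinases that pair with the D-type cyclins gave other patterns. *Cdk4* had a lowest, median and highest value of 4.70, 5.24 and 5.46 log2 CPM in sgInert and of 4.49, 5.35 and 5.56 in sgCebpa/b/d libraries, and 4.37, 5.41, 5.66, 5.25 and 4.69 in the sgLkb1 libraries #1 to #5. The groups overlapped over nearly their whole range, and the log2 fold changes of *Cdk4* against sgInert were 0.08 and −0.02. *Cdk6* had 2.58, 3.39 and 5.14 log2 CPM in sgInert, 3.74, 4.46 and 5.05 in sgCebpa/b/d, and 4.67, 3.50, 4.28, 4.61 and 5.00 in the sgLkb1 libraries. Its medians were higher in both targeted groups, but the highest sgInert library was above all others, and the log2 fold changes of 0.46 and 0.49 had adjusted p-values of 0.496 and 0.568 by edgeR. Over the G1 list, the medians of the log2 fold changes were 0.05, 0.46 and −0.28 in the order sgCebpa/b/d against sgInert, sgLkb1 against sgInert and sgCebpa/b/d against sgLkb1, beside 0.02, −0.01 and 0.03 over all genes tested.

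**Figure D3:**
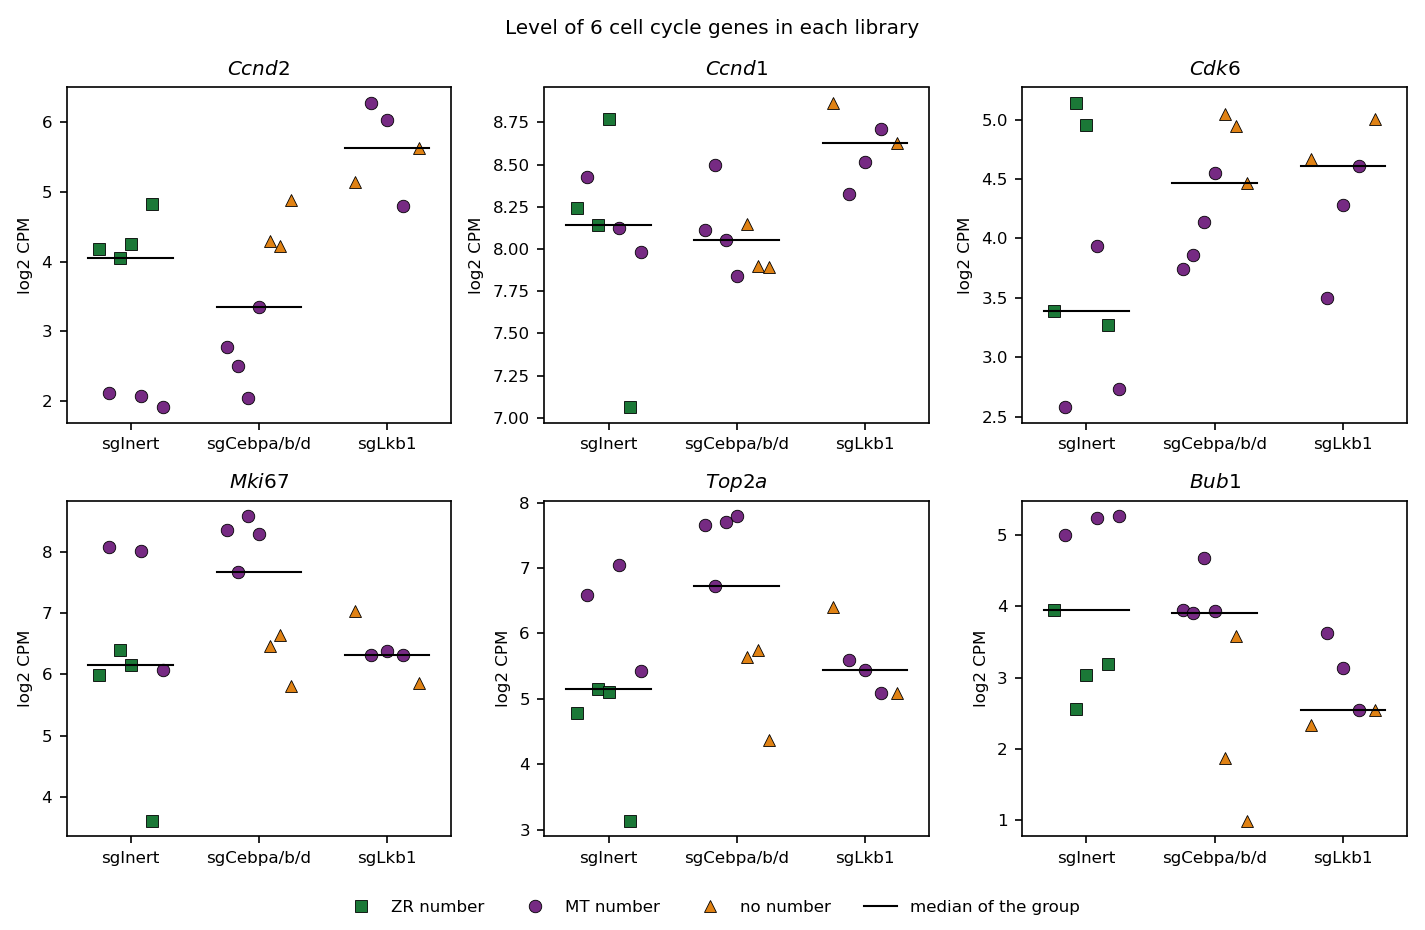
Level of *Ccnd2*, *Ccnd1*, *Cdk6*, *Mki67*, *Top2a* and *Bub1* in each library (y axis, log2 CPM) by group (x axis). Points are libraries, their shape and colour give the title series, and lines are group medians. For *Ccnd2* 4 of 5 sgLkb1 libraries lie above all others, and for *Mki67* and *Top2a* the 4 MT-numbered sgCebpa/b/d libraries lie above all sgLkb1 libraries.

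With group as the only term, the genes of the G1/S transition and of DNA replication showed little difference in level between groups. No member of the S list then passed the adjusted threshold in any of the 3 comparisons by edgeR. An unadjusted p under 0.05 was held by 1, 0 and 3 of the 17, and by 3251, 2589 and 2557 of all 13986 genes. DESeq2 and limma-voom also called none of the S members. The medians of their log2 fold changes were 0.06, −0.19 and 0.24 in the same order, with 9, 6 and 13 of 17 above 0. Summed over the list, the level was 202 to 435 CPM in sgInert, 234 to 414 across sgCebpa/b/d and 262 to 307 across sgLkb1 libraries.

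*Ccne1* and *Ccne2* encode the E-type cyclins that activate CDK2 at the G1/S transition. *Ccne1* was at 4 to 18 counts in sgInert, 2 to 20 across sgCebpa/b/d and 0 to 12 across sgLkb1 libraries, and its log2 fold changes of −0.42, −0.89 and 0.47 in the 3 comparisons rest on these few counts. Its 0 in sgLkb1#2 allows up to 3 counts, or 0.498 CPM, by counting error alone. *Ccne2* had a lowest, median and highest value of 3.78, 4.56 and 4.78 log2 CPM in sgInert, 3.62, 4.76 and 5.98 in sgCebpa/b/d, and 4.45, 4.49, 4.15, 3.55 and 4.54 in the sgLkb1 libraries #1 to #5. The highest *Ccne2* values were in sgCebpa/b/d, while its lowest library was at the level of the lowest sgInert and sgLkb1 libraries. Among MT-numbered libraries *Ccne2* was higher in sgCebpa/b/d than in sgLkb1 (log2 fold change 0.77, standard error 0.21, edgeR adjusted p = 0.0493).

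The licensing genes load the replicative helicase onto origins of replication. *Cdc6*, the loading factor, had 0.94, 1.84 and 2.62 log2 CPM (lowest, median and highest) in sgInert and 2.04, 2.69 and 3.21 in sgCebpa/b/d libraries, and 2.16, 2.72, 0.88, 1.53 and 0.26 in sgLkb1 libraries. From 6 to 60 counts, the log2 fold change of sgCebpa/b/d libraries was 0.81 (standard error 0.37) against sgInert and 1.00 (standard error 0.40) against sgLkb1, with edgeR adjusted p-values of 0.186 and 0.179. *Mcm2*, a helicase subunit, had 2.21, 3.34 and 3.61 log2 CPM in sgInert, 2.22, 4.02 and 4.50 in sgCebpa/b/d, and 3.29, 3.96, 3.49, 3.79 and 3.27 in sgLkb1 libraries. The 4 MT-numbered sgCebpa/b/d libraries, at 4.02 to 4.50, were the highest of all 19, and the 3 without a number, at 2.22 to 3.05, were among the lowest. *Mcm6*, another helicase subunit, had 2.10, 3.30 and 4.66 log2 CPM in sgInert, 2.89, 4.06 and 4.51 in sgCebpa/b/d, and 3.77, 3.19, 3.66, 2.68 and 2.72 in sgLkb1 libraries, and its groups overlapped.

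*Pcna*, the sliding clamp of DNA polymerases, had a lowest, median and highest value of 5.85, 6.90 and 7.45 log2 CPM in sgInert and of 6.56, 6.91 and 7.21 in sgCebpa/b/d libraries. It had 6.94, 6.35, 6.77, 6.79 and 6.84 log2 CPM in the sgLkb1 libraries #1 to #5, within the range of the controls. Its log2 fold changes of 0.08 (standard error 0.19) in sgCebpa/b/d and −0.03 (standard error 0.21) in sgLkb1 against sgInert were smaller than their errors. *Rrm2*, the regulatory subunit of ribonucleotide reductase, had 0.29, 3.16 and 3.72 log2 CPM in sgInert, 2.12, 3.58 and 4.39 in sgCebpa/b/d, and 2.95, 3.00, 2.14, 2.42 and 1.24 in sgLkb1 libraries. Its log2 fold change between sgCebpa/b/d and sgLkb1 was 1.17 (standard error 0.48, edgeR adjusted p = 0.195). With sex as a covariate this was 1.55 and passed (standard error 0.45, edgeR adjusted p = 0.0428). The other S members (*Cdk2*, *E2f1*, *Cdt1*, *Gmnn*, *Mcm3*, *Mcm4*, *Mcm5*, *Mcm7*, *Rrm1* and *Tyms*) had log2 fold changes from −0.76 to 0.50 over the 3 comparisons with group as the only term. None of them passed the adjusted threshold there.

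The G2/M genes varied most, and mostly between libraries of the same group. Summed over the 22 genes, the level in sgInert libraries had a lowest value of 59.6, a median of 212 and a highest value of 756 CPM, and in sgCebpa/b/d libraries 143, 558 and 1067 CPM. The sgLkb1 libraries #1 to #5 had 371, 243, 268, 215 and 185 CPM. The highest library held 12.7 times the level of the lowest within sgInert, 7.48 times within sgCebpa/b/d and 2.01 times within sgLkb1, whereas for the S list these ratios were 2.15, 1.77 and 1.17. The sgLkb1 libraries lay within the range of both other groups.

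In sgInert the high libraries shared 1 animal number, and in sgCebpa/b/d they were those with an MT number. Of the 22 G2/M genes, 19 were higher in both MT1161 libraries of sgInert (#2 and #5, with summed levels of 685 and 756 CPM) than in the other 5 sgInert libraries, an order that 6.81% of all genes showed. In sgInert#6, with the lowest sum, 17 of the 22 genes had their lowest sgInert value, against 18.0% of all genes. In that library 5 members (*Plk1*, *Birc5*, *Cenpa*, *Cenpe* and *Kif20a*) had 0 counts, which allows up to 3 counts each, or 0.517 CPM at its depth of 5801871. The 4 MT-numbered sgCebpa/b/d libraries were above the 3 without a number for 16 of 22 genes, against 10.7% of all genes, at summed levels of 558 to 1067 against 143 to 306 CPM. For 13 of the 22 genes the 4 MT-numbered sgCebpa/b/d libraries were above all 5 sgLkb1 libraries, an order seen for 6.04% of all genes. The title series did not divide the other groups in this way. The 3 MT-numbered sgInert libraries were above the 4 ZR-numbered ones for 3 of the 22 genes (*Top2a*, *Cdk1* and *Bub1*), with sgInert#7 at a sum of 212 CPM, and the 3 MT-numbered sgLkb1 libraries were above the 2 unnumbered ones for 0 of 22, with the highest sum, 371 CPM, in the unnumbered sgLkb1#1. In sgCebpa/b/d, the title series and the sex of the animals divide the libraries in the same way and cannot be told apart. MT1161, sgInert#6 and the MT-numbered sgCebpa/b/d libraries were singled out by their G2/M levels. The counts of these same genes in each order are therefore descriptions, and the shares of all genes beside them are no test.

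**Figure D4:**
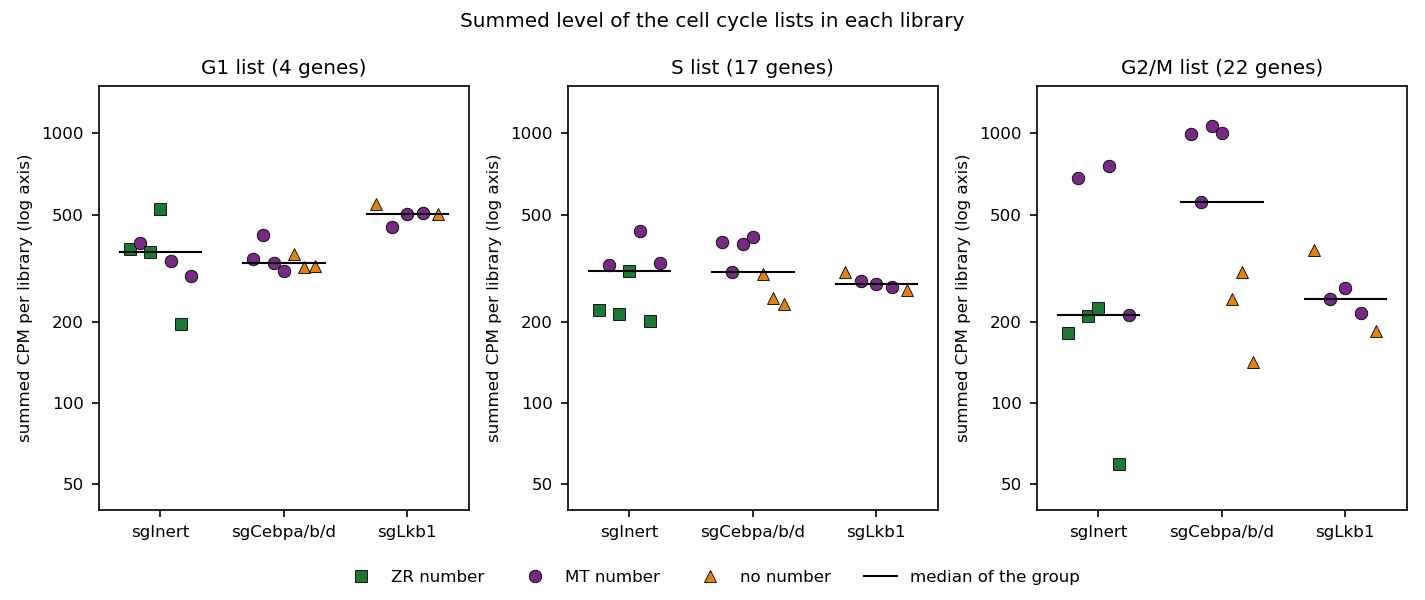
Summed level of the G1, S and G2/M lists in each library (y axis, CPM on a log axis) by group (x axis). Points are libraries, their shape and colour give the title series, and lines are group medians. The G2/M list spans 59.6 to 756 CPM in sgInert, 143 to 1067 across sgCebpa/b/d and 185 to 371 across sgLkb1 libraries, while the S list stays between 202 and 435 CPM.

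*Mki67*, which encodes the proliferation marker Ki-67 and lies on chromosome 7 from 135689784 to 135716361, had a lowest, median and highest value of 3.61, 6.16 and 8.09 log2 CPM in sgInert libraries, from 66 to 2005 counts. In sgCebpa/b/d libraries these were 5.81, 7.66 and 8.58, from 333 to 2327 counts. The sgLkb1 libraries #1 to #5 had 7.03, 6.32, 6.39, 6.31 and 5.86 log2 CPM. The 4 MT-numbered sgCebpa/b/d libraries, at 7.66 to 8.58, were above every sgLkb1 library, while the 3 without a number, at 5.81 to 6.64, overlapped them. The log2 fold changes of *Mki67* were 0.82 (standard error 0.49) in sgCebpa/b/d against sgInert, −0.46 (standard error 0.54) in sgLkb1 against sgInert and 1.28 (standard error 0.54) in sgCebpa/b/d against sgLkb1 libraries, with edgeR adjusted p-values of 0.347, 0.731 and 0.219.

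*Top2a*, the topoisomerase that untangles replicated chromosomes (chromosome 11, from 98992943 to 99024189), had 3.13, 5.15 and 7.04 log2 CPM (lowest, median and highest) in sgInert and 4.37, 6.72 and 7.80 in sgCebpa/b/d libraries. It had 6.40, 5.59, 5.43, 5.09 and 5.09 log2 CPM in the sgLkb1 libraries #1 to #5. As for *Mki67*, its high sgInert libraries were those of MT1161 and its high sgCebpa/b/d libraries those with an MT number. The log2 fold changes of *Top2a* were 1.18 (standard error 0.50, edgeR adjusted p = 0.153) against sgInert and 1.34 (standard error 0.55, edgeR adjusted p = 0.198) against sgLkb1.

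*Cdk1* and *Ccnb1* encode the kinase and the cyclin that drive entry into mitosis. *Cdk1* had −0.99, 2.19 and 3.93 log2 CPM (lowest, median and highest) in sgInert, 1.81, 3.51 and 4.39 in sgCebpa/b/d, and 1.78, 2.61, 1.87, 1.37 and 2.78 in the sgLkb1 libraries #1 to #5. *Ccnb1* had 1.14, 1.81 and 4.42 log2 CPM in sgInert, −0.01, 3.44 and 4.84 in sgCebpa/b/d, and 2.49, 0.34, 2.87, 1.99 and 1.05 in sgLkb1 libraries. For both genes the groups overlapped, from as few as 1 count for *Cdk1* and 4 for *Ccnb1*. The log2 fold changes between sgCebpa/b/d and sgLkb1 libraries were 1.45 for *Cdk1* (edgeR adjusted p = 0.215) and 1.59 for *Ccnb1* (edgeR adjusted p = 0.247).

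*Kif11*, the motor that separates the poles of the spindle, had 2.62, 3.29 and 4.74 log2 CPM (lowest, median and highest) in sgInert, 2.22, 4.43 and 5.68 in sgCebpa/b/d, and 3.90, 3.33, 3.94, 3.59 and 3.42 in the sgLkb1 libraries #1 to #5. Its log2 fold change of 1.08 in sgCebpa/b/d against sgInert (standard error 0.42, edgeR adjusted p = 0.112) was the one with the smallest p of the list in that comparison, and it passed the threshold without sgCebpa/b/d#7, the lowest of its group (log2 fold change 1.28, edgeR adjusted p = 0.0290). *Cenpa*, the histone H3 variant of centromeres, had −1.63, 1.74 and 2.70 log2 CPM in sgInert, 1.06, 2.74 and 3.89 in sgCebpa/b/d, and 1.19, 2.33, 2.64, 1.13 and 1.33 in sgLkb1 libraries. Its sgCebpa/b/d libraries had a difference of 1.33 from sgInert on the log2 scale (edgeR adjusted p = 0.142).

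*Bub1*, a kinase of the spindle checkpoint, departed from the other G2/M genes, and its log2 fold change was the only one of the list below 0 in sgCebpa/b/d against sgInert libraries. It had a lowest, median and highest value of 2.56, 3.95 and 5.27 log2 CPM in sgInert, 1.00, 3.91 and 4.68 in sgCebpa/b/d, and 2.34, 3.63, 3.14, 2.54 and 2.55 in sgLkb1 libraries. Its 3 highest values were those of the MT-numbered sgInert libraries, at 5.01 to 5.27, above all 16 other libraries. The log2 fold change of *Bub1* was −0.75 in sgCebpa/b/d (edgeR adjusted p = 0.387) and −1.52 in sgLkb1 libraries (standard error 0.54, edgeR adjusted p = 0.119) against sgInert, and the latter passed the threshold by DESeq2. Among MT-numbered libraries both passed, with log2 fold changes of −1.04 (edgeR adjusted p = 0.0231) and −2.07 (edgeR adjusted p = 0.000578).

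Over the G2/M list, the medians of the log2 fold changes were 0.94 in sgCebpa/b/d against sgInert, −0.33 in sgLkb1 against sgInert and 1.17 in sgCebpa/b/d against sgLkb1 libraries, beside 0.02, −0.01 and 0.03 over all genes. Above 0 were 21, 4 and 22 of the 22 genes. An unadjusted p under 0.05 was held by 3, 1 and 10 of them, and by 3251, 2589 and 2557 of all 13986 genes. *Plk1*, *Aurka*, *Aurkb*, *Birc5* and *Cdca8*, which encode mitotic kinases and partners of Aurora B, were at 0 to 77 counts, with log2 fold changes from −0.36 to 1.13. The other members not described one by one (*Foxm1*, *Ccna2*, *Ccnb2*, *Cdc20*, *Ube2c*, *Bub1b*, *Cenpe*, *Cenpf*, *Kif20a* and *Tpx2*) had log2 fold changes from −0.56 to 1.60 in the 3 comparisons. The median for sgLkb1 against sgInert changed sign with limma-voom (0.13), with log2(TPM + 1) in limma (0.18, the same as the median of all genes there), without MT1161 (0.69) and without sgInert#5 alone (0.10, with 12 of 22 genes above 0). It was −0.01, with 10 of 22 genes above 0, when the libraries of each animal were summed, and −1.08 with sex as a covariate. That for sgCebpa/b/d against sgInert was 1.85 without MT1161 and −0.11 without MT1205, so that either animal decides its size. Without MT1161, 10 members passed as higher in sgCebpa/b/d than in sgInert libraries by edgeR, against 8.9% of all genes. These were *Ccna2*, *Ccnb2*, *Cdk1*, *Cenpe*, *Cenpf*, *Kif11*, *Kif20a*, *Mki67*, *Top2a* and *Ube2c*, with a log2 fold change of 1.82 for *Mki67* (edgeR adjusted p = 0.0169). MT1161 was singled out by its high G2/M levels, and all 10 are G2/M genes. These calls are therefore descriptions and no test.

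**Figure D5:**
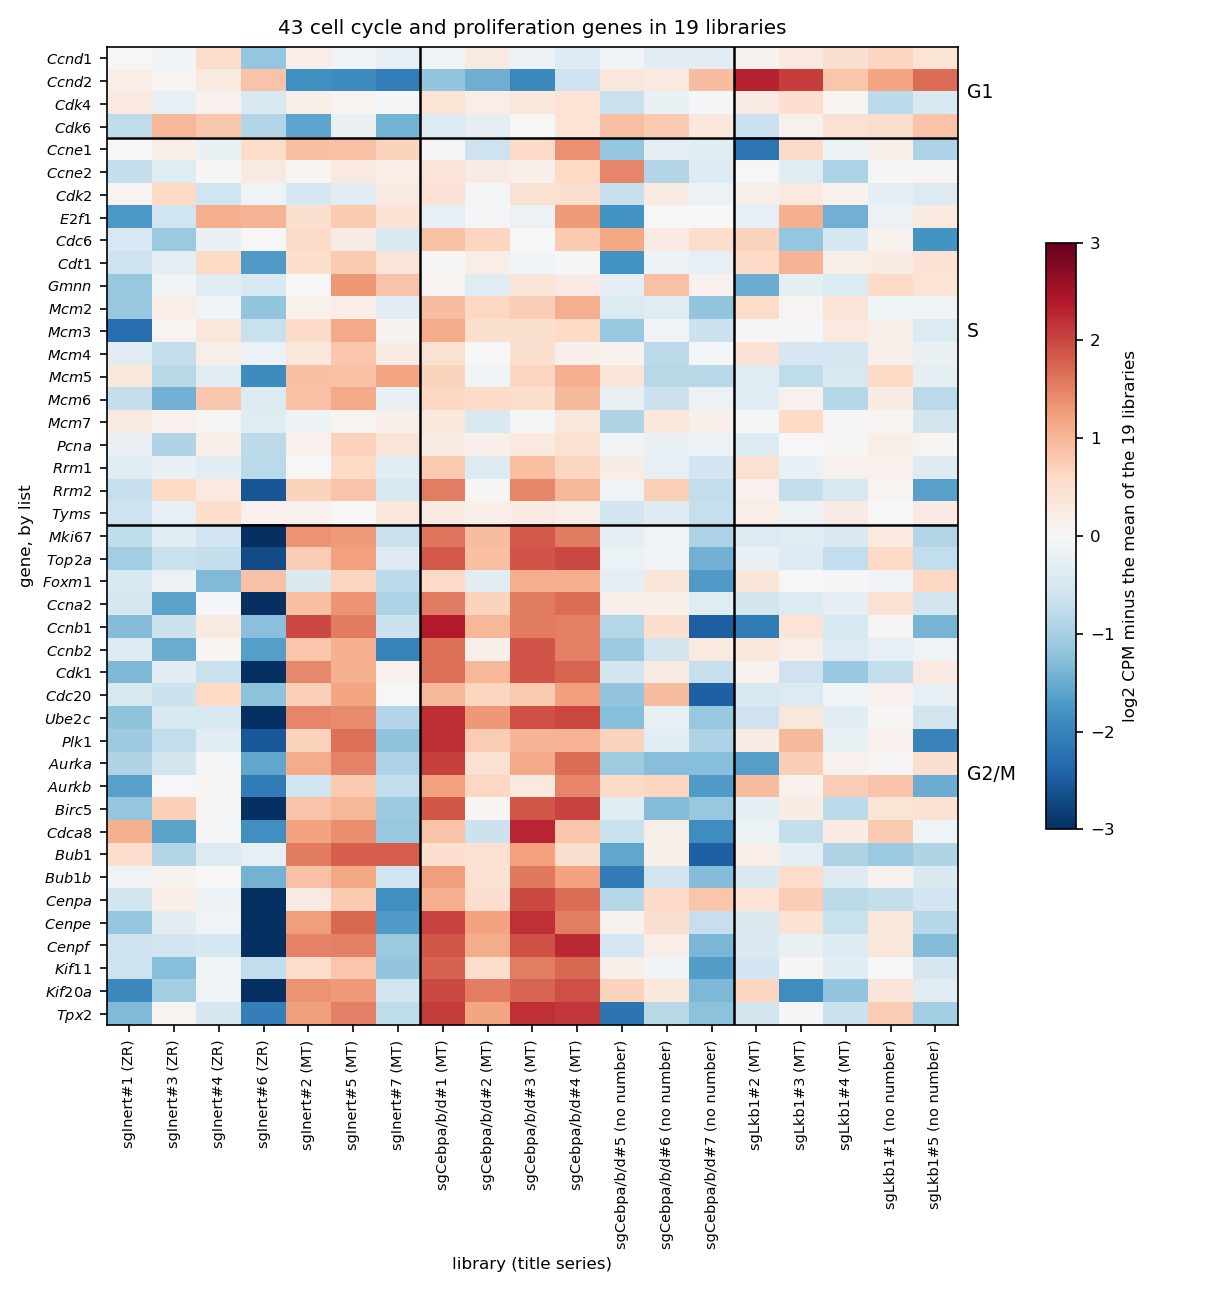
Level of each of the 43 members (rows, by list) in each of the 19 libraries (columns, by group and title series), as log2 CPM minus the mean of the gene over all libraries (colour scale from −3 to 3). Most G2/M genes are above their mean in the 2 sgInert libraries of MT1161 and the 4 MT-numbered sgCebpa/b/d libraries, and below it in sgInert#6.

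Among MT-numbered libraries alone and among female libraries alone, more members passed. With title series as a covariate over all libraries, the numbers stayed close to those with group as the only term. Among the 10 MT-numbered libraries, 2 of 43 members passed between sgCebpa/b/d and sgInert, with *Mcm2* higher (log2 fold change 0.84, edgeR adjusted p = 0.0382) and *Bub1* lower, against 8.55% of all genes. Between sgLkb1 and sgInert 5 passed, against 6.97% of all genes: *Ccnd2* was higher, and *Bub1*, *Cdk1*, *Mcm5* and *Mki67* were lower in sgLkb1. Between sgCebpa/b/d and sgLkb1 15 of 43 passed, against 6.98% of all genes. *Ccnd2* was lower in sgCebpa/b/d, and *Ccne2* together with 13 G2/M genes (*Bub1*, *Ccna2*, *Ccnb1*, *Cdc20*, *Cdk1*, *Cenpe*, *Cenpf*, *Kif11*, *Kif20a*, *Mki67*, *Top2a*, *Tpx2* and *Ube2c*) was higher. There the log2 fold change was 1.92 for *Mki67* (standard error 0.34, edgeR adjusted p = 0.00442) and 2.15 for *Top2a* (standard error 0.31, edgeR adjusted p = 0.00109).

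These MT-numbered libraries carried 2 animal numbers in each group. With the libraries of each animal summed, 0, 2 (*Ccnd2* higher and *Bub1* lower in sgLkb1) and 1 (*Ccnd2*) of the 43 members passed by edgeR in the 3 comparisons, against 2.78%, 2.69% and 1.57% of all genes. An unadjusted p under 0.05 was held by 3, 13 and 17 members, and by 2205, 2292 and 1981 of 15073 genes. The median log2 fold changes of the G2/M list were then 0.77, −0.94 and 1.56. In the 12 female libraries 1 member passed between sgCebpa/b/d and sgInert (*Cdk2*, higher), against 4.98% of all genes. Between sgLkb1 and sgInert 10 passed, against 6.78%, with *Ccnd2* higher and *Bub1*, *Ccna2*, *Ccnb1*, *Cdc20*, *Cenpe*, *Cenpf*, *Mcm6*, *Mki67* and *Ube2c* lower in sgLkb1. Between sgCebpa/b/d and sgLkb1 21 passed, against 8.57%, with *Ccnd2* lower and 20 members higher in sgCebpa/b/d, of which 17 were G2/M genes. The 4 female sgCebpa/b/d libraries are the MT-numbered ones, and 2 of the 3 female sgInert libraries come from MT1161. With the female libraries of each animal summed, 0, 0 and 3 members passed by edgeR, against 0.97%, 2.49% and 2.39% of all genes. An unadjusted p under 0.05 was held by 2, 10 and 22 members, and by 1642, 2300 and 2297 of 15464 genes. The 3 that passed were *Ccnd2*, which was higher in sgLkb1, and *Kif11* and *Ube2c*, which were higher in sgCebpa/b/d. *Ccnd2* then had a log2 fold change of 2.15 in sgLkb1 against sgInert (edgeR adjusted p = 0.0860), and the G2/M medians were 0.71, −0.91 and 1.44.

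The members of the G2/M list were also the most variable and moved together. The standard deviation within groups had a median of 1.17 log2 CPM over the G2/M list, 0.66 over the S list and 0.57 over the G1 list, against 0.43 over all genes tested, and 93.0% of all genes had a value below the median of the G2/M list. After the group means were removed, the level of each G2/M gene was correlated over the 19 libraries with the mean of the other 21 at r = 0.35 (*Foxm1*) to 0.98 (*Cenpf*), with a median of 0.86. Within the S list the corresponding median was 0.62 (0.10 to 0.80), and within the G1 list it was −0.01. The libraries of one animal, and the title series, are shared in these values, which are descriptions. *Ccnd2* went the other way, with r = −0.73 to the mean of the G2/M list. The ratio of the summed G2/M level to the summed S level was 0.294 to 2.11 in sgInert, 0.609 to 2.75 across sgCebpa/b/d and 0.705 to 1.21 across sgLkb1 libraries.

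Other genes of the cycle were examined as lists. Of 46 further mitosis genes tested, 1 passed as higher in sgCebpa/b/d than in sgInert libraries, namely *Smc4*, a subunit of condensin, which compacts chromosomes (8.68 to 8.88 against 7.45 to 8.46 log2 CPM, log2 fold change 0.78, standard error 0.12, edgeR adjusted p = 0.000128). The sgCebpa/b/d libraries did not overlap the sgInert libraries for this gene. Between sgLkb1 and sgInert 1 of the 46 passed, *Wee1*, an inhibitory kinase of CDK1, whose log2 fold change was −0.91 (edgeR adjusted p = 0.0453). Between sgCebpa/b/d and sgLkb1 5 of 46 passed as higher, among them *Smc4* (1.01), *Wee1* (0.95) and *Nusap1* (1.65), which encodes a protein of spindle microtubules. Of all 13986 genes, 10.1%, 5.78% and 5.96% passed in the 3 comparisons. An unadjusted p under 0.05 was held by 11, 2 and 16 of the 46 mitosis genes, beside 3251, 2589 and 2557 of all genes. The median log2 fold changes of the mitosis list were 0.77, −0.27 and 0.94. Of 35 further replication genes, 0, 0 and 1 passed by edgeR. An unadjusted p under 0.05 was held by 1, 1 and 2 of them, and by 3251, 2589 and 2557 of all 13986 genes. The 1 that passed was *Rfc4*, a subunit of the clamp loader, at −0.77 in sgCebpa/b/d against sgLkb1 (edgeR adjusted p = 0.0447).

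Of 24 tested genes of the RB family, the E2Fs and the inhibitors of cyclin-dependent kinases, 1 passed as higher and 1 as lower in sgCebpa/b/d than in sgInert libraries, 2 and 1 in sgLkb1 than in sgInert, and 1 and 1 in sgCebpa/b/d than in sgLkb1. All of those that passed encode inhibitors. Of all genes tested, 10.1%, 5.78% and 5.96% passed in the same 3 comparisons. *Cdkn1a*, which encodes p21, had 6.30 to 7.22 log2 CPM in sgInert, 5.95 to 6.48 across sgCebpa/b/d and 7.26 to 7.80 across sgLkb1 libraries. It was lower in sgCebpa/b/d (log2 fold change −0.61, standard error 0.13, edgeR adjusted p = 0.00340) and higher in sgLkb1 libraries (0.69, standard error 0.14, edgeR adjusted p = 0.00395) than in sgInert, and the sgCebpa/b/d and sgLkb1 libraries did not overlap (−1.30, standard error 0.14, edgeR adjusted p = 4.61e-06). *Cdkn2c*, which encodes the CDK4 and CDK6 inhibitor p18, went the other way, at 2.80 to 4.39, 4.04 to 4.82 and 2.68 to 3.19 log2 CPM in the same order of groups. Its log2 fold changes were 0.83 (edgeR adjusted p = 0.00941), −0.78 (edgeR adjusted p = 0.0455) and, between sgCebpa/b/d and sgLkb1, 1.61 (standard error 0.22, edgeR adjusted p = 0.000117). *Cdkn1c*, which encodes p57, was higher in sgLkb1 than in sgInert libraries (log2 fold change 1.81, standard error 0.42, edgeR adjusted p = 0.0114). Histone genes whose symbols begin with Hist1h, Hist2h or Hist3h include many near-identical copies, among which reads may be divided. They summed to 113 to 157 CPM in sgInert, 93.9 to 177 across sgCebpa/b/d and 92.6 to 131 across sgLkb1 libraries. Of the 15 tested, 1 was higher in sgCebpa/b/d and 1 was lower in sgLkb1 than in sgInert libraries. Between sgCebpa/b/d and sgLkb1 0 passed by edgeR (2 at an unadjusted p under 0.05, beside 2557 of all 13986 genes).

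The sort excluded cells that stained for the leukocyte, endothelial, macrophage or erythroid surface proteins CD45, CD31, F4/80 or Ter119, but markers of other cell types still differed between some of these libraries. Endothelial markers (6 genes) summed to 9.55 to 49.0 CPM in sgInert libraries, 14.5 to 51.0 in the MT-numbered and 171 to 255 CPM in the unnumbered sgCebpa/b/d libraries, and 47.6 to 193 in sgLkb1 libraries. Leukocyte markers (9 genes) summed to 6.33 to 26.5, 4.34 to 9.70, 60.6 to 73.4 and 5.80 to 67.4 CPM in the same order, with *Cd3e* and *Adgre1* at 0 counts in all 7 sgInert libraries. Fibroblast markers (6 genes) summed to 11.1 to 19.7 CPM in the MT-numbered and 45.6 to 152 CPM in the ZR-numbered sgInert libraries, 62.3 to 235 across sgCebpa/b/d and 96.7 to 248 across sgLkb1 libraries. Of these lists, 4 endothelial and 2 fibroblast markers were higher in sgCebpa/b/d and 1 and 2 in sgLkb1 than in sgInert libraries, and none differed between sgCebpa/b/d and sgLkb1 by edgeR. The unnumbered sgCebpa/b/d libraries, with the highest endothelial and leukocyte sums, are those with higher *Ccnd2* and lower G2/M levels within their group. The 2 unnumbered sgLkb1 libraries also had higher endothelial (101 and 193 against 47.6 to 99.5 CPM) and leukocyte sums (30.4 and 67.4 against 5.80 to 12.3 CPM) than the MT-numbered ones, but they held both the highest and the lowest G2/M sum of their group, and their *Ccnd2* levels lay within the range of the others. In sgInert, the ZR-numbered libraries, with higher fibroblast sums, were also those with higher *Ccnd2*, and sgInert#6 had the highest fibroblast sum (152 CPM), the highest *Ccnd2* and the lowest G2/M level of its group. The part of these cells in the levels of the members was not tested.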

How the data were processed

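Bulk RNA-seq of 19 libraries was used. Part of the genotype that all groups share is not reported here. The authors aligned reads to mm10 with STAR (2.6.1d) and estimated gene levels with RSEM (1.2.30). The deposited expected counts per gene, in 1 table per library, were rounded to whole numbers, and the deposited TPM values were used for levels between genes and for an alternative fit. Tables of fold changes and p-values of the authors' own comparisons and their normalized table were not used here. Gene coordinates came from GENCODE M21 (GRCm38). The annotation release behind the counts was not given in the sources used here.

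Genes were filtered with edgeR (4.0.16, R 4.3.3) filterByExpr (minimum count 10, minimum total 15), normalized by TMM and fitted by quasi-likelihood in one model of all 19 libraries with group as the only term. P-values were adjusted over all 13986 genes by Benjamini-Hochberg, with a threshold of 0.05. Standard errors of log2 fold changes came from the same model. Log2 CPM values used a prior count of 2. DESeq2 (1.42.0), limma-voom and limma (3.58.1) on log2(TPM + 1), other scalings, covariates and subsets of libraries were alternatives, and those that used female libraries (also summed by animal), summed MT-numbered libraries or left out an animal or the unnumbered libraries were chosen after seeing the data. The procedure was tested on simulated data.

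The members and the other gene lists were chosen with earlier results of these data known. Described one by one were *Mki67*, *Top2a*, *Ccnd1*, *Ccnd2*, *Cdk4*, *Cdk6*, *Ccne1*, *Ccne2*, *Cdk1*, *Pcna*, *Mcm2* and *Rrm2*, each member that passed, and the 2 with the smallest p of each list in each comparison. Of the other pathway genes, at most 3 with the smallest p per direction were named. Markers were read as lists. Depth limits genes of few counts, and limits set on a count of 0 cover counting error only.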

Additional observations from a re-analysis of the deposited data

Results flagged for a closer look

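Of 66 gene and group combinations examined for a library that stands apart, 1 did so. For *Pcna*, the sliding clamp of DNA polymerases, sgLkb1#2 had 6.355 log2 CPM, from 520 counts, and the other 4 sgLkb1 libraries had 6.77 to 6.94. The gap to the next library was 0.714 of the range of the group. Chance alone gives about 1 in 20 such groups.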

How the results depend on the processing

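Over 41 alternative settings, of which 19 left out 1 library, the 18 members described one by one gave 2104 values. Of these, 2024 stayed within the spread or on their side of the threshold, 59 passed it newly, 11 lost it and 10 moved, and no value that passed it in either setting turned its direction. In the order sgCebpa/b/d against sgInert, sgLkb1 against sgInert and sgCebpa/b/d against sgLkb1, the number of members that passed was 0, 1 and 1 with the settings of the report. It was 0, 2 and 2 with library size alone (10.3%, 7.57% and 6.48% of all genes), with DESeq2 (13%, 8.15% and 8.12%) and with limma on log2(TPM + 1) (7.46%, 6.66% and 6.91%), where *Ccnd1* or *Bub1* joined *Ccnd2*. It was 1, 6 and 15 with sex as a covariate (12.3%, 8.99% and 6.41% of all genes), 0, 2 and 1 with title series as a covariate (6.62%, 4.7% and 7.66%), 2, 5 and 15 in MT-numbered libraries, 0, 2 and 1 in those summed by animal 1, 10 and 21 in female libraries and 0, 0 and 3 in those summed by animal. It was 0, 0 and 0 with all libraries of an animal summed (8.35%, 3.75% and 3.28% of all genes). An unadjusted p under 0.05 was then held by 1, 3 and 3 members, and by 3116, 2325 and 2256 of 14204 genes. The number that passed was 10, 0 and 1 without MT1161 (8.9%, 4.71% and 6.22%), 0, 1 and 0 without MT1205 (10.3%, 5.96% and 4.12%), 0, 0 and 0 without MT1136 (8.92%, 3.18% and 2.94%), and 3, 1 and 1 without the unnumbered libraries (6.26%, 3.73% and 3.23%). With the 2 groups alone it was 2 for sgCebpa/b/d against sgLkb1, against 6.97% of all genes, and at an adjusted p of 0.1 it was also 2 there. The causes of these differences were not tested. MT1161 was singled out by its high G2/M levels, so the 10 members that passed without it are a description. Leaving out 1 library at a time gave 0 to 1, 0 to 1 and 0 to 2 members, against 8.57% to 10.6%, 3.81% to 6.35% and 4.03% to 6.34% of all genes. Without sgLkb1#2 or #3 *Ccnd2* was lost, without sgInert#6 or sgCebpa/b/d#2 *Ccnd1* was added, and without sgCebpa/b/d#7 *Kif11* was added. The log2 fold change of *Ccnd2* was then 1.76 to 2.30 and −2.28 to −1.74 against sgInert and sgLkb1. The median of the G2/M list was 0.73 to 1.36, −0.50 to 0.10 and 0.98 to 1.28, and −0.11 without MT1205 in the first comparison. That of the S list was −0.05 to 0.24, −0.29 to −0.01 and 0.12 to 0.33. Library size alone moved the median of all genes to 0.14, and log2(TPM + 1) to 0.18, in sgLkb1 against sgInert, and log2(TPM + 1) to −0.15 in sgCebpa/b/d against sgLkb1. With the replicate number as a block, 0, 1 and 1 members passed, against 9.24%, 6.24% and 4.73% of all genes, and the G2/M medians were 1.01, −0.65 and 1.51. Of 17 pairs of libraries with the same number, 2 had a correlation of deviations over 0.1 (−0.147 to 0.232, median 0.024), and 3 of 19 libraries correlated best with their own number, so that the numbers were not taken to pair the libraries. Depth limits the genes of few counts, such as *Ccne1* and *Plk1*.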
